A study of Mus musculus with 2 samples.

Results

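Follistatin transcripts (Fst) were 12.4-fold higher in all kept wound cells of diabetic mice than in those of non-diabetic mice, while transcripts of the activin A subunit (Inhba) were 4.64-fold lower and those of the stress-induced cytokine Gdf15 14.2-fold lower. With the dendritic cell-like, neutrophil-like and Ctsk-led states left out, the differences were 11.6-fold higher for Fst, 5.27-fold lower for Inhba and 17.0-fold lower for Gdf15. The states then kept were not all marked as monocyte- or macrophage-like. Most diabetic Fst and most non-diabetic Inhba came from 1 cell state each, and each of these states was found almost entirely in 1 library. The states came from clustering both libraries together without aligning them. The transcripts described are those of 8 genes of activin and TGF-beta signalling, found by their symbols among the 31053 genes listed: Inhba, Tgfb1, Gdf15, Fst, Tgfbr1, Tgfbr2, Acvr1b and Tgfbi. All 8 symbols matched 1 gene each. The genes were chosen by their UMI levels in these libraries, in earlier results of these data, so their differences between libraries are given as descriptions.

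The study placed monocytes and macrophages from skin wounds of diabetic mice beside those of non-diabetic mice, both taken on day 6 after injury, to compare their single-cell 3' transcriptomes. Each group was 1 droplet library, in which cells of 2 mice were pooled after the wounds were enzymatically digested. The labels name neither the diabetic model nor the strains, and they speak of mice of each strain, so diabetes and strain cannot be told apart. With 1 library a group there is no replicate spread, and no difference was tested: intervals are exact 95% intervals on counts of unique molecular identifiers (UMIs) or of cells, and cover counting error only.

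Activins and TGF-beta are dimeric secreted ligands of one superfamily, which bring together type II and type I receptor kinases at the cell surface. The receptors phosphorylate SMAD2 and SMAD3, which enter the nucleus with SMAD4 and change transcription. Follistatin binds activin outside the cell and blocks its access to receptors, whereas TGF-beta is secreted in a latent complex that integrins or proteases must open. In skin wounds, activin A and TGF-beta1 are known to be made by several cell types, macrophages among them, and to act on granulation tissue, matrix deposition and scarring.

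The 250 bases before the annotated start of Inhba and of Gdf15, the ligand genes with the largest differences between the libraries, are shown from the RefSeq promoter set on build GRCm38.p6, in capitals where a searched motif matched. The Inhba window is chr13:16011601-16011850 on the plus strand and the Gdf15 window, before the first of its 2 listed start sites, is chr8:70632457-70632706 on the minus strand.
Inhba: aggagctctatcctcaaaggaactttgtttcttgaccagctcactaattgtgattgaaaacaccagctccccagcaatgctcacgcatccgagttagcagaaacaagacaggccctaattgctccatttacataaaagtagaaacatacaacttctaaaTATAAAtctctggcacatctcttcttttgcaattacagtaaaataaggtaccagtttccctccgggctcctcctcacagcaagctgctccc
Gdf15: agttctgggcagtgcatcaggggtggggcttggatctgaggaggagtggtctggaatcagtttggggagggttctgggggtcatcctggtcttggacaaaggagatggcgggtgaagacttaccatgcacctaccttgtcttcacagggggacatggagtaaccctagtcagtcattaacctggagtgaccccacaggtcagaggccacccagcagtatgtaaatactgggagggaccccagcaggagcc
The motifs searched on both strands were AP-1 (TGANTCA), the cAMP response element (TGACGTCA), the palindromic SMAD element (GTCTAGAC), the CAGA box (CAGACA), the CCAAT box (CCAAT) and the TATA box (TATAAA). The Inhba window held the TATA box, 91 bases before the start, and none of the others. TATAAA was present in 12.4% of 32851 such windows. The Gdf15 window held none of the 6, and CAGACA, the most frequent of the SMAD letters, was present in 17.1% of all windows. A match or its lack says only which letters stand in the window.

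After cells with fewer than 500 genes or with 10% or more mitochondrial UMIs were removed, 1755 of 2214 diabetic and 1123 of 2026 non-diabetic barcodes were kept. They held 30435047 diabetic and 15429273 non-diabetic UMIs, at a median of 16314 per diabetic and 14079 per non-diabetic cell. Only 1 barcode was shared among the kept cells. As to the labelled cell type, monocyte markers summed to 20244 CPM (UMIs per 1000000 UMIs) in diabetic and 19728 CPM in non-diabetic cells, and macrophage markers to 10512 CPM in diabetic and 5403 CPM in non-diabetic cells, with none of either list at 0. Clustering without the 8 genes and without the pathway genes described further on gave 15 cell states, of which 9 took over 90% of their cells from 1 library. States are called after their leading gene, and as monocyte-, macrophage-, dendritic- or neutrophil-like where their markers allowed. The 8 genes did not define the states, but genes that vary with them may have. Comparisons of libraries within a state were made in the 5 states with at least 30 cells of each library, and levels were compared over the 19 sums of a state in a library with at least 30 cells.

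Over all kept cells, diabetic cells had at least 1.5 times more of 3 of the 8 genes (Fst, Acvr1b and Tgfbr2) and at least 1.5 times less of 2 (Inhba and Gdf15). Among all 12337 genes with at least 20 UMIs, 18.7% were that much higher and 12.9% that much lower in the diabetic library. The median gene had a log2 ratio of diabetic over non-diabetic CPM of 0.12; centred on it, the shares became 14.3% higher and 15.9% lower. As the genes were chosen with these values known, nothing is read from their count.

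**Figure D1:**
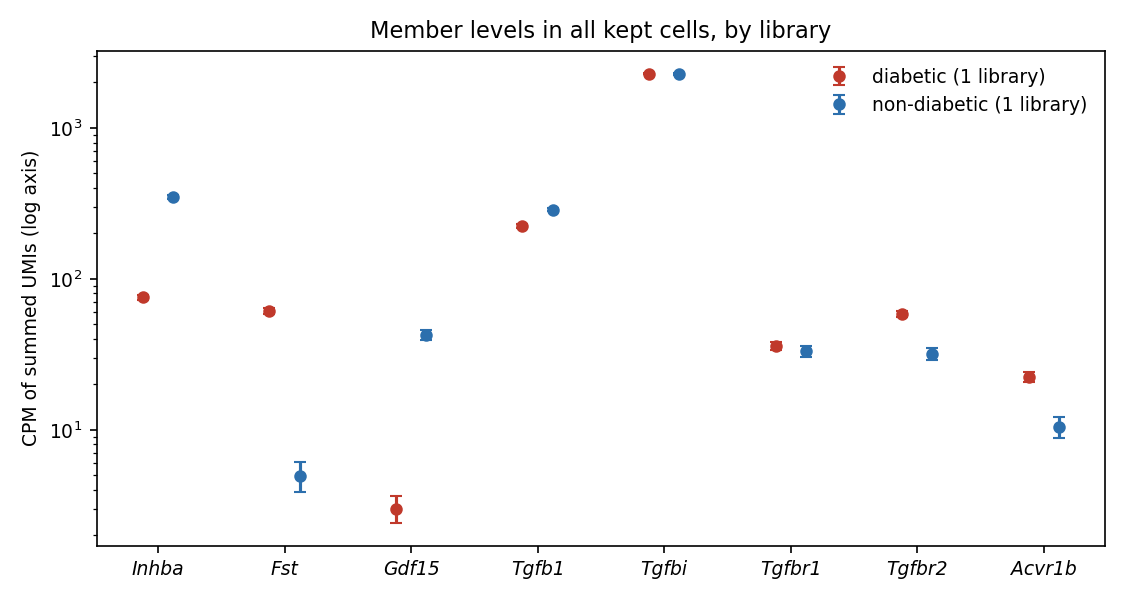
Levels of the 8 genes in all kept cells, as CPM of summed UMIs on a log axis, for the diabetic (red, left of each pair) and the non-diabetic library (blue), with exact 95% Poisson intervals. Inhba and Gdf15 lie lower and Fst, Tgfbr2 and Acvr1b higher in the diabetic library, while the Tgfbi points lie level at 2286 CPM (diabetic) and 2277 CPM (non-diabetic).

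Inhba encodes the beta-A subunit, 2 of which make activin A. It had 2295 UMIs, or 75.4 CPM (72.4 to 78.6), in diabetic cells and 5394 UMIs, or 350 CPM (340 to 359), in non-diabetic cells. Diabetic cells were thus 4.64-fold lower in Inhba (4.41 to 4.87; log2 ratio -2.21). A UMI was found in 345 of 1755 diabetic cells (19.7%) and in 266 of 1123 non-diabetic cells (23.7%), so the libraries differed more in the transcripts per Inhba-positive cell than in the share of such cells. When each cell was thinned to 2000 UMIs, the shares were 8.79% in diabetic and 14.1% in non-diabetic cells, with 25 diabetic and 37 non-diabetic shallower cells left out.

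Non-diabetic Inhba came from one state. The cells led by Sema3c, which encodes a semaphorin, and also marked by Nt5e, Rdh12, Tnfrsf9 and Pdpn, numbered 3 in the diabetic and 301 in the non-diabetic library. They held 92.4% of the non-diabetic Inhba UMIs at a level of 1438 CPM (1398 to 1478), far above every other sum. A UMI of Inhba was in 178 of those 301 cells, with a median of 11.5 and a highest value of 144 UMIs per positive cell, and 94 cells had 10 or more. The 3 diabetic Sema3c-led cells held 28 Inhba UMIs, or 525 CPM (349 to 759). All 3 had a UMI. Of the 178 positive non-diabetic cells 171 had a UMI of Ptprc, the CD45 gene, 169 of Lyz2, 140 of the CSF1 receptor gene Csf1r and 41 of the macrophage gene Adgre1. Free RNA can give such UMIs, and its part was not tested. Of the fibroblast genes Col1a1 was found in 5 of the 178, Col3a1 in 3, Col1a2 in 2, Dcn and Pdgfrb in 1 each and Pdgfra and Lum in 0. Pecam1, an endothelial gene that leukocytes also use, was found in 52, and Krt5, Krt14, Cd207 and Epcam, which mark keratinocytes and Langerhans cells, in 0.

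Diabetic Inhba was spread over more states. The Stfa3-led cells, marked by the stefin gene Stfa3 with Lcn2, Ptges, S100a8 and Il12a and present as 320 diabetic cells and 1 non-diabetic cell, held 49.0% of it at 184 CPM (173 to 195). The Nrg1-led cells, 309 diabetic and 9 non-diabetic, held 21.7% at 108 CPM (98.9 to 118). The diabetic Lpl-led cells, at 155 CPM (127 to 188), and P2rx1-led cells, at 113 CPM (98.8 to 128), came between them in order, and neighbours among these 4 diabetic levels had overlapping intervals. The highest non-diabetic level outside the Sema3c-led cells was 87.4 CPM (73.9 to 103), in the Raet1e-led cells. In the Stfa3-led cells 168 of 320 had a UMI, at a median of 3, against the 11.5 of the non-diabetic Sema3c-led cells. At the low end, the diabetic Syngr1-led macrophage-like cells had 2.01 CPM and the diabetic Lyz1-led cells 3.46 CPM.

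Without the Sema3c-led cells, left out because they held the most Inhba UMIs, the Inhba difference turned round. A lower non-diabetic level without them follows from that choice. The level was then 74.6 CPM in diabetic and 34.3 CPM in non-diabetic cells, a log2 ratio of 1.12 (0.97 to 1.28). Without both the Sema3c-led and the Stfa3-led cells, a set chosen after the data were seen, it was 47.1 CPM in diabetic and 33.6 CPM in non-diabetic cells, a log2 ratio of 0.48, within 1.5 times. The direction of the Inhba difference thus rested on the Sema3c-led state, of which the diabetic library held 3 cells.

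In the 4 measured states with at least 30 cells of each library, Inhba was not 1.5 times lower in the diabetic cells. In Cd163-led cells, 135 diabetic and 10 non-diabetic, it was at 12.8 CPM in diabetic and 45.1 CPM in non-diabetic cells. It reached 20 UMIs, the sum needed over both libraries, in 4 of the 5 states and was at least 1.5 times higher in the diabetic cells of 2, the dendritic cell-like state, where 9.92% of all genes measured were that much higher, and the Lpl-led state, where 13.6% were. In the classical monocyte-like state the levels were 42.6 CPM in diabetic and 45.5 CPM in non-diabetic cells, a log2 ratio of -0.09 (-0.54 to 0.35). In the Ifit2-led, interferon-marked state they were 11.9 CPM in diabetic and 11.95 CPM in non-diabetic cells. In the Lpl-led state, marked by the lipase gene Lpl with Ccl24, Qpct, Pparg and Axl, they were 155 CPM in diabetic and 34.4 CPM in non-diabetic cells, a log2 ratio of 2.17 (1.68 to 2.68). A single diabetic cell held 63 of the 106 diabetic UMIs there, and without the cell with most UMIs in each library the levels were 64.3 CPM in diabetic and 20.2 CPM in non-diabetic cells, a log2 ratio of 1.66. In the dendritic cell-like state the levels of 54.4 CPM in diabetic and 18.4 CPM in non-diabetic cells rested on 1 cell in each library, with 61 of 64 diabetic and 41 of 44 non-diabetic UMIs, and 3 UMIs remained on either side without them.

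**Figure D2:**
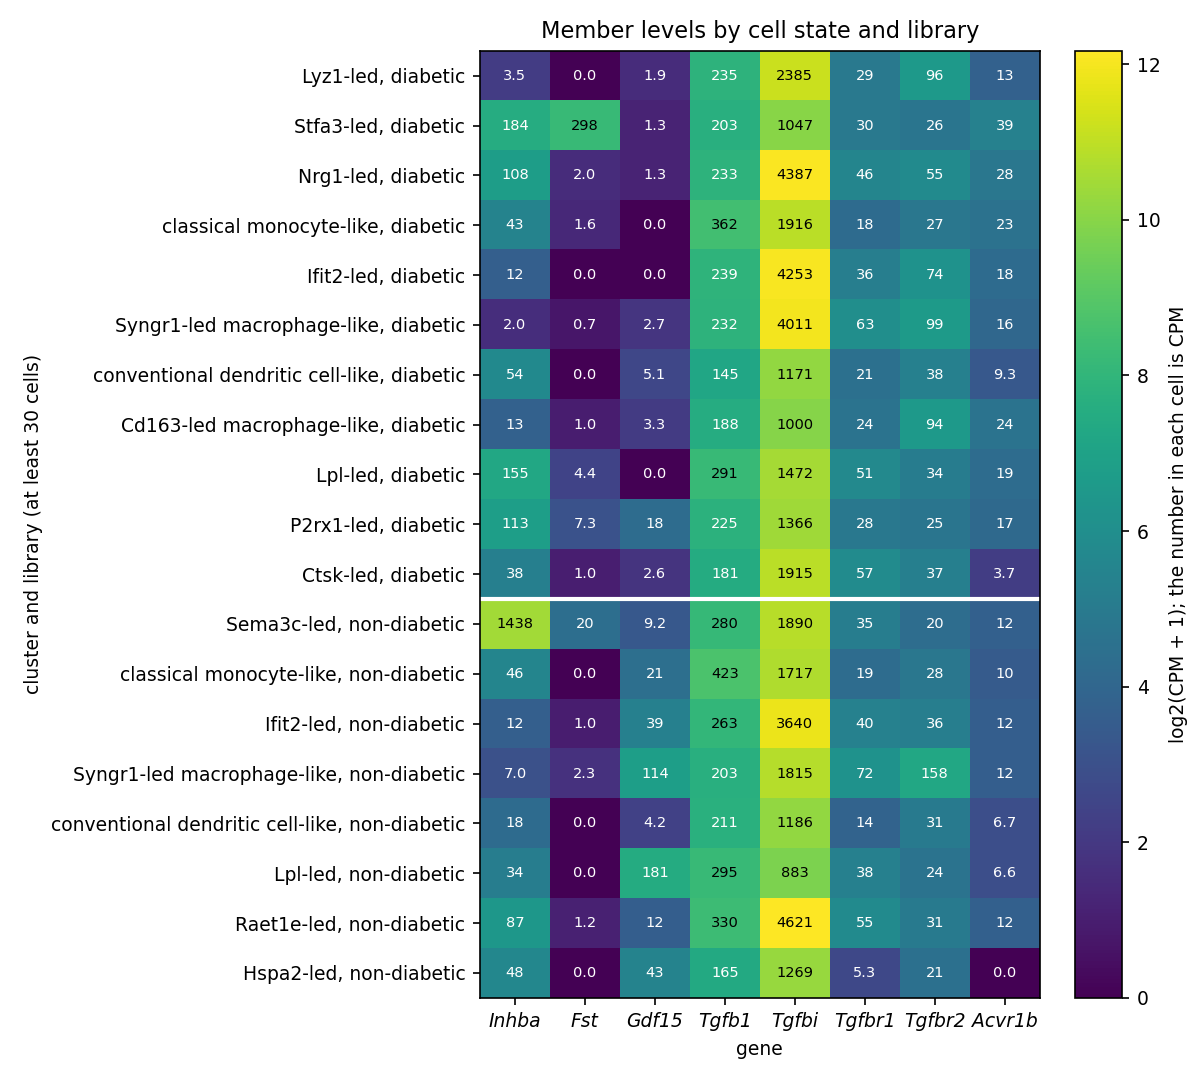
Level of each of the 8 genes (columns) in each state and library with at least 30 cells (rows, diabetic above the white line, non-diabetic under it), coloured by log2(CPM + 1) with the CPM written in each cell. Inhba peaks at 1438 CPM in the non-diabetic Sema3c-led cells and Fst at 298 CPM in the diabetic Stfa3-led cells, whereas Tgfb1 lies between 145 and 423 CPM in every row.

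Fst encodes follistatin, the secreted antagonist of activin. It had 1862 UMIs, or 61.2 CPM (58.4 to 64.0), in diabetic cells and 76 UMIs, or 4.93 CPM (3.88 to 6.17), in non-diabetic cells, 12.4-fold higher in the diabetic library (9.87 to 15.8; log2 ratio 3.63). A UMI was found in 121 of 1755 diabetic and in 17 of 1123 non-diabetic cells. After thinning, the shares were 3.35% of diabetic and 0.645% of non-diabetic cells.

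The Stfa3-led cells held 98.0% of the diabetic Fst UMIs, at 298 CPM (285 to 312), with a UMI in 101 of 320 cells and 10 or more in 49 of them. The next level was that of the non-diabetic Sema3c-led cells, at 20.2 CPM (15.7 to 25.5), which held 92.1% of the 76 non-diabetic UMIs in 14 cells, 30 of them in 1 cell. The diabetic Stfa3-led cells also held 49.0% of the Inhba UMIs of their library. Every other sum was at most 7.29 CPM, the value of the diabetic P2rx1-led cells, of which 12 of 15 UMIs were in 1 cell. Among thinned dendritic cell-like cells no Fst UMI was seen in 64 diabetic and 122 non-diabetic cells, and the diabetic Lyz1-led cells, 347 in number, held none without thinning.

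Fst-positive Stfa3-led cells carried myeloid transcripts. Of the 101, Lyz2 was found in 100, Ptprc in 99, Csf1r in 96 and Adgre1 in 84. The macrophage gene C1qa was found in only 20 and the monocyte gene Ccr2 in 17, and the neutrophil marker Csf3r in 63. Of the fibroblast genes Dcn and Col3a1 were found in 4 each, Col1a1 and Pdgfrb in 2 each, Lum in 1 and Col1a2 and Pdgfra in 0. All 101 had a UMI of S100a8, an alarmin gene of neutrophils and monocytes. The summed neutrophil markers of the Stfa3-led state stood at 18489 CPM, with Ly6g at 0 UMIs. S100a8 made up most of that sum, at 17585 CPM in the 101 cells and 16282 CPM in the 219 without Fst. Of the 10 neutrophil markers, 5 were found in at least 10% of Stfa3-led cells, and 4 were also at least 2-fold above all other cells. Of the 12 macrophage markers 11 were found in at least 10% and 0 were 2-fold above. Of the 10 monocyte markers 8 were found in at least 10% and 1 was 2-fold above. The neutrophil-like cells, 16 in the diabetic and 0 in the non-diabetic library, formed a state of their own. The part of the neutrophil-type transcripts in the Fst level was not tested. Reads of Gm47040, an antisense gene that overlaps Fst, numbered 5 UMIs in the diabetic and 0 in the non-diabetic library.

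The Stfa3-led cells were left out because they held the most Fst UMIs, so a lower diabetic level without them follows from that choice. Without them Fst was lower in the diabetic library, at 1.56 CPM against 4.93 CPM in the non-diabetic library. The log2 ratio was -1.65, from 38 diabetic and 76 non-diabetic UMIs. Without the Sema3c-led cells the levels were 61.3 CPM in diabetic and 0.502 CPM in non-diabetic cells, from 1862 diabetic and 6 non-diabetic UMIs. Without both states, a set chosen after the data were seen, Fst was at 1.57 CPM in diabetic and 0.502 CPM in non-diabetic cells, a log2 ratio of 1.54 (0.39 to 3.17) from 38 diabetic and 6 non-diabetic UMIs. In none of the 5 shared states did Fst reach 20 UMIs over both libraries, so no difference within a state could be given.

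Few cells showed both Inhba and Fst. In thinned cells both were detected in 17 of 1730 diabetic cells (0.983%) and in 4 of 1086 non-diabetic cells (0.368%), and at 5000 UMIs per cell in 1.75% of diabetic and 0.611% of non-diabetic cells. Over all thinned diabetic cells Fst was detected in 11.2% (6.65 to 17.3) of those with an Inhba UMI and 2.60% (1.87 to 3.51) of those without, pooled over states. Of the 17 diabetic cells 16 were Stfa3-led, and all 4 non-diabetic ones were Sema3c-led. Among Stfa3-led diabetic cells Fst was detected in 22.2% (13.3 to 33.6) of the 72 cells with an Inhba UMI and in 16.4% (11.98 to 21.6) of the 244 without, intervals that overlap. Among Sema3c-led non-diabetic cells the shares were 3.28% (0.9004 to 8.18) of the 122 with and 1.198% (0.145 to 4.26) of the 167 without an Inhba UMI.

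**Figure D3:**
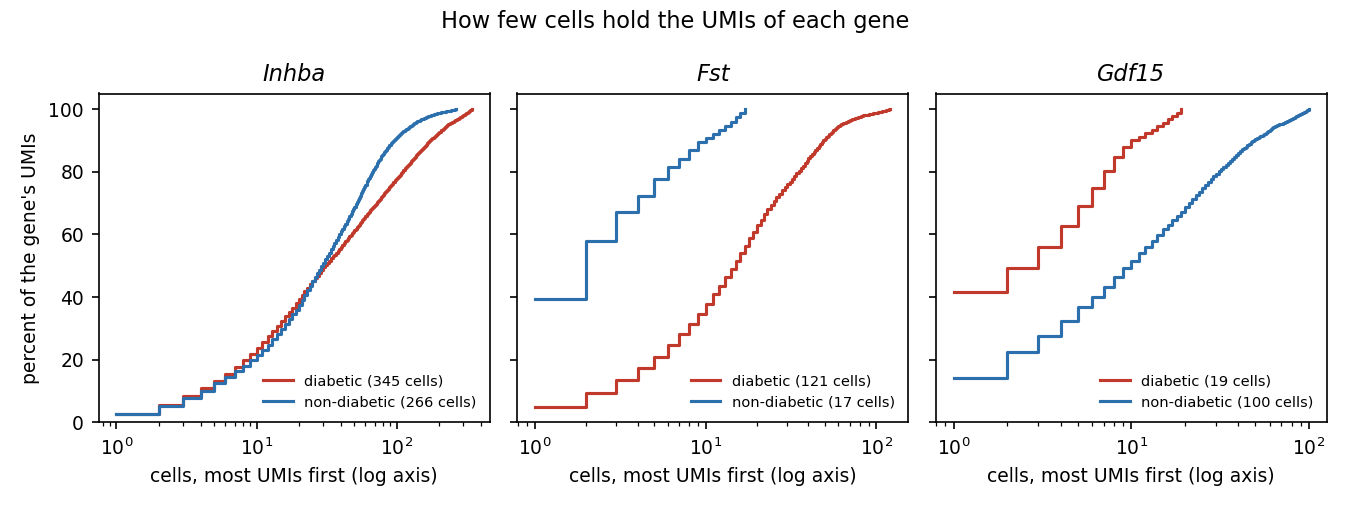
Cumulative percent of the UMIs of Inhba, Fst and Gdf15 (vertical axis) against the number of cells, those with most UMIs first (horizontal log axis), for the diabetic (red) and non-diabetic (blue) library, with the number of positive cells in each legend. Inhba needs 31 diabetic and 30 non-diabetic cells to reach 50% of its UMIs, Fst 15 diabetic and 2 non-diabetic cells, and Gdf15 3 diabetic and 10 non-diabetic cells.

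Gdf15 encodes a distant member of the superfamily whose receptor, GFRAL, is known from the brainstem, and it is a target of the integrated stress response. It had 91 UMIs, or 2.99 CPM (2.41 to 3.67), in diabetic cells and 654 UMIs, or 42.4 CPM (39.2 to 45.8), in non-diabetic cells, 14.2-fold lower in the diabetic library (11.4 to 17.9; log2 ratio -3.82). A UMI was found in 19 diabetic and 100 non-diabetic cells. In the diabetic library 38 of the 91 UMIs lay in 1 P2rx1-led cell, and no other diabetic sum passed 5.10 CPM. Gfral had 0 UMIs in both libraries.

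Unlike Inhba, Gdf15 was lower in the diabetic cells of shared states. It was measured in 4 of the 5 and was at least 1.5 times lower in the diabetic cells of all 4, where the share of all genes that much lower was 12.1% in classical monocyte-like, 15.5% in Ifit2-led, 20.7% in Syngr1-led and 18.1% in Lpl-led cells. The Lpl-led cells held the largest share of it in the non-diabetic library, 41.9%, with 274 UMIs or 181 CPM (160 to 204), in 33 cells. The 42 diabetic Lpl-led cells had 0 UMIs, so the level was at least 41.3-fold lower there, taking 3 UMIs in place of 0. The Ifit2-led cells likewise had 0 diabetic and 116 non-diabetic UMIs, at least 6.46-fold lower.

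The other shared states held fewer Gdf15 transcripts. The Syngr1-led macrophage-like cells had 8 diabetic UMIs, or 2.67 CPM, and 49 non-diabetic UMIs, or 114 CPM (84.5 to 151), a log2 ratio of -5.34. In the classical monocyte-like cells, with 0 diabetic and 44 non-diabetic UMIs (at least 12.7-fold lower), 33 of the 44 lay in 1 cell, and without it the gene fell under 20 UMIs. The largest Lpl-led cell held 92 UMIs, and 182 non-diabetic UMIs were left without it. The dendritic cell-like cells had 6 diabetic and 10 non-diabetic UMIs, which was too few to compare. The 10 non-diabetic Cd163-led macrophage-like cells, too few for a shared state, held 91 UMIs, 56 of them in 1 cell, against 10 UMIs in 135 diabetic cells of that state.

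Tgfb1 encodes TGF-beta1. Its 6819 diabetic UMIs gave 224 CPM (219 to 229) and its 4444 non-diabetic UMIs 288 CPM (280 to 297), a log2 ratio of -0.36 (-0.42 to -0.31), within 1.5 times. It was detected in 91.2% of diabetic and 87.4% of non-diabetic cells, or after thinning in 35.9% of diabetic and 42.4% of non-diabetic cells. It was found in each of the 19 sums. The 1% of cells with most UMIs held 5.85% of it in the diabetic and 5.38% in the non-diabetic library, against 36.6% of diabetic and 24.9% of non-diabetic Inhba. The classical monocyte-like cells had the highest levels, 362 CPM (335 to 390) in diabetic and 423 CPM (396 to 451) in non-diabetic cells. The diabetic dendritic cell-like cells had the lowest, at 145 CPM (124 to 169), against 211 CPM (193 to 230) in the non-diabetic ones. None of the 5 shared states differed by 1.5 times, with log2 ratios from -0.53 in the dendritic cell-like to 0.19 in the Syngr1-led state. Without the cell with most UMIs in each library, the dendritic cell-like log2 ratio was -0.68, past 1.5 times. The levels there were then 127 CPM in diabetic and 203 CPM in non-diabetic cells, and the other shared states stayed within 1.5 times.

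Tgfbr2 encodes the type II TGF-beta receptor, which binds the ligand first. It had 1782 UMIs, or 58.6 CPM (55.9 to 61.3), in diabetic and 489 UMIs, or 31.7 CPM (28.9 to 34.6), in non-diabetic cells, 1.85-fold higher in the diabetic library (1.67 to 2.05). It was high in macrophage-like states: 98.6 CPM in diabetic and 158 CPM in non-diabetic Syngr1-led cells, and 94.4 CPM in diabetic Cd163-led cells. The diabetic Lyz1-led cells, at 96.2 CPM, stood beside them with overlapping intervals. It was low at 25.8 CPM (21.95 to 30.2) in diabetic Stfa3-led cells and 19.6 CPM (15.2 to 24.9) in non-diabetic Sema3c-led cells, the last of the 19 sums. Other sums were as low, such as the classical monocyte-like cells at 27.0 CPM in diabetic and 27.7 CPM in non-diabetic cells. The diabetic Nrg1-led cells, which also held Inhba, had 55.5 CPM (48.9 to 62.7). Without the Stfa3-led and Sema3c-led states the log2 ratio was 0.92, against 0.88 with them.

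Within shared states Tgfbr2 went both ways. In the Ifit2-led cells it had 37 diabetic UMIs, or 73.5 CPM, and 107 non-diabetic UMIs, or 35.5 CPM, a log2 ratio of 1.06 (0.47 to 1.60). In that state 18.4% of all genes measured were at least 1.5 times higher in diabetic cells. In the Syngr1-led cells its 295 diabetic and 68 non-diabetic UMIs gave a log2 ratio of -0.69 (-1.07 to -0.28), where 20.7% of all genes were at least 1.5 times lower. However, 24 of the 68 non-diabetic UMIs lay in 1 cell. Among the 30 non-diabetic Syngr1-led cells 1 cell had 5 or more UMIs of fibroblast markers, and the fibroblast markers of these 30 cells summed to 3615 UMIs, against 65 UMIs in the 179 diabetic ones. Without cells of 5 or more such UMIs, a set chosen after the data were seen, the levels were 96.9 CPM in diabetic and 124 CPM in non-diabetic cells, a log2 ratio of -0.37, within 1.5 times. The other 3 states were within 1.5 times, with log2 ratios from -0.03 to 0.51.

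Tgfbr1 (ALK5), the type I TGF-beta receptor, differed little. Its levels were 36.0 CPM (33.9 to 38.2) in diabetic and 33.1 CPM (30.3 to 36.1) in non-diabetic cells, a log2 ratio of 0.12, that of the median gene. The Syngr1-led cells again stood first, at 62.8 CPM in diabetic and 72.2 CPM in non-diabetic cells, and the classical monocyte-like cells were low, at 18.4 CPM in diabetic and 18.8 CPM in non-diabetic cells. Only the dendritic cell-like state passed 1.5 times, at 21.2 CPM in diabetic and 13.8 CPM in non-diabetic cells, with an interval of the log2 ratio from -0.19 to 1.42 that holds 0. In that state 9.92% of all genes measured were that much higher.

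Acvr1b encodes ALK4, the type I receptor that activin A uses. It had 678 UMIs, or 22.3 CPM (20.6 to 24.0), in diabetic and 161 UMIs, or 10.4 CPM (8.89 to 12.2), in non-diabetic cells, 2.13-fold higher in the diabetic library (1.80 to 2.55; log2 ratio 1.09). The highest level was that of the Fst-rich diabetic Stfa3-led cells, at 39.2 CPM (34.4 to 44.5), clear of the next, 27.7 CPM (23.2 to 33.0) in diabetic Nrg1-led cells. The first 9 of the 19 sums were all diabetic, though neighbours after the first overlapped. The non-diabetic Sema3c-led cells, the main source of Inhba, had 12.1 CPM (8.73 to 16.4).

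The Acvr1b log2 ratio was above 0 in all 5 shared states and past 1.5 times in 3, where the share of all genes that much higher was 10.6% in classical monocyte-like, 18.4% in Ifit2-led and 13.6% in Lpl-led cells. In classical monocyte-like cells the levels were 23.2 CPM in diabetic and 10.3 CPM in non-diabetic cells, a log2 ratio of 1.15 (0.40 to 1.98). In Lpl-led cells they were 19.0 CPM in diabetic and 6.62 CPM in non-diabetic cells, from 13 diabetic and 10 non-diabetic UMIs, a log2 ratio of 1.51 (0.22 to 2.87), but without the cell with most UMIs in each library the gene fell under 20 UMIs there. In Ifit2-led cells they were 17.9 CPM in diabetic and 11.6 CPM in non-diabetic cells, from 9 diabetic and 35 non-diabetic UMIs, with an interval of the log2 ratio from -0.62 to 1.71 that holds 0. The interval also held 0 in Syngr1-led (-0.89 to 2.12) and dendritic cell-like cells (-0.77 to 1.68), and the Syngr1-led log2 ratio was 0.01 without cells of 5 or more fibroblast UMIs. Thinned to 2000 UMIs, a UMI was seen in 4.68% (3.74 to 5.79) of diabetic and 3.13% (2.18 to 4.35) of non-diabetic cells, intervals that overlap. In 20 draws of the thinning the means were 4.34% in diabetic and 2.37% in non-diabetic cells, with all 20 higher in diabetic cells. The draws thin the same cells again, so they show the noise of thinning only and are not replicates. At 5000 UMIs the shares were 10.9% in diabetic and 5.70% in non-diabetic cells.

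**Figure D4:**
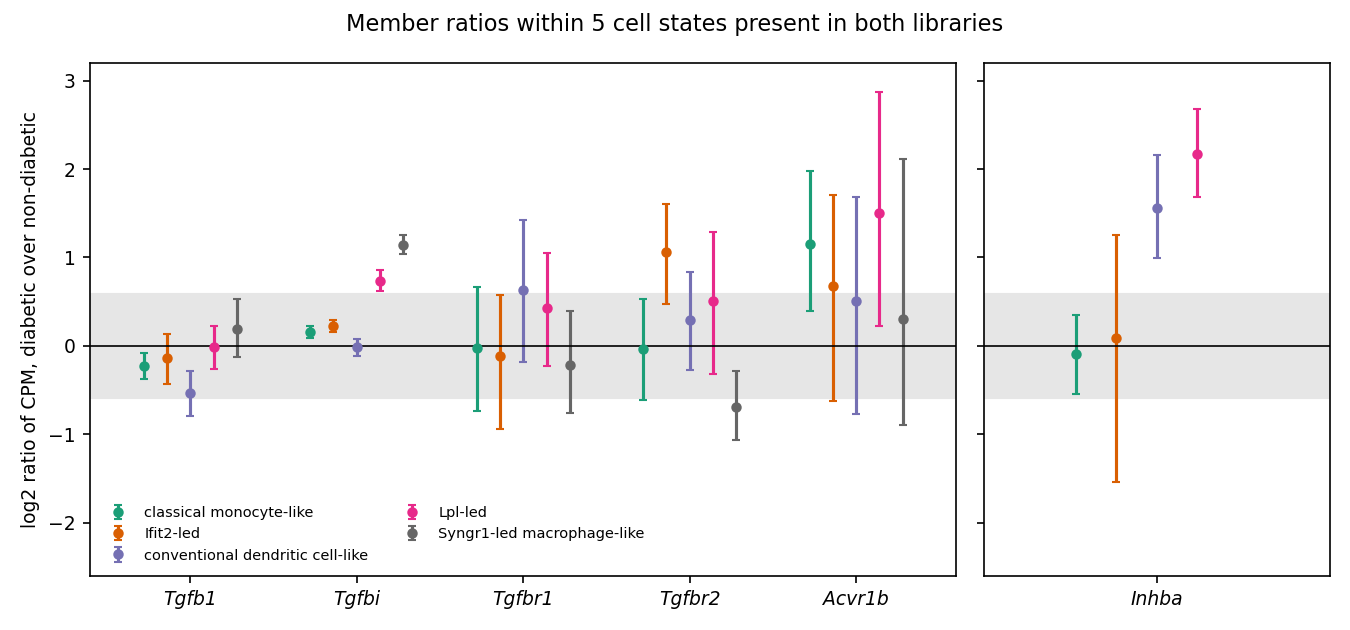
Log2 ratio of CPM, diabetic over non-diabetic, of 6 of the genes within the 5 states with at least 30 cells of each library, with exact 95% intervals for counting error; the grey band marks less than 1.5 times. The Acvr1b points all lie above 0, the Tgfbr2 points lie from -0.69 to 1.06, and Fst and Gdf15 are left out because of their low or zero counts.

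Tgfbi, a matrix protein gene named for its induction by TGF-beta, was abundant and level between the libraries: 2286 CPM (2269 to 2303) in diabetic and 2277 CPM (2253 to 2301) in non-diabetic cells. It was found in 97.3% of diabetic and 94.8% of non-diabetic cells. Its levels varied with the state more than with the library, from 883 CPM in non-diabetic Lpl-led to 4621 CPM in non-diabetic Raet1e-led cells. The diabetic Nrg1-led cells had 4387 CPM and the Ifit2-led cells 4253 CPM when diabetic and 3640 CPM when non-diabetic. The diabetic Stfa3-led cells were low, at 1047 CPM, and the non-diabetic Sema3c-led cells had 1890 CPM. Within shared states it was at least 1.5 times higher in diabetic cells of 2: the Syngr1-led cells, at 4011 CPM in diabetic and 1815 CPM in non-diabetic cells (log2 ratio 1.14, or 0.87 without cells of 5 or more fibroblast UMIs), and the Lpl-led cells, at 1472 CPM in diabetic and 883 CPM in non-diabetic cells (log2 ratio 0.74). In each of these states 13.6% of all genes measured were that much higher.

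The pathway around these genes was followed in 7 lists, of which 76 different genes had at least 20 UMIs. In diabetic cells 16 of the 76 were higher and 25 lower by 1.5 times or more, where 18.7% of all genes were that much higher and 12.9% that much lower. Centred on the median of all genes, 13 were higher and 31 lower. Of 9 measured superfamily ligands 2 were higher and 3 lower, at a median log2 ratio of -0.36. Beside the genes already described these held few transcripts, such as Inhbb, which encodes the beta-B subunit of activin and had 55 diabetic and 3 non-diabetic UMIs, with all 55 diabetic ones in the Ctsk-led cells. Inha, Inhbc, Gdf5, Gdf6, Gdf7, Mstn, Nodal and Bmp5 had 0 UMIs in both libraries.

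Of 8 measured antagonists and latency proteins, Fst was higher (12.5%, against 18.7% of all genes) and 3 were lower (37.5%, against 12.9%) in the diabetic library. Nrros, which holds latent TGF-beta1 on myeloid cells, was at 144 CPM in diabetic and 142 CPM in non-diabetic cells, and the decoy receptor gene Bambi at 23.8 CPM in diabetic and 33.3 CPM in non-diabetic cells, both within 1.5 times. Of 11 receptors 5 were higher (45.5%, against 18.7% of all genes) and 1 was lower (9.09%, against 12.9%). Among the higher was Acvr2a, which encodes a type II activin receptor, just past 1.5 times at 20.4 CPM in diabetic and 13.5 CPM in non-diabetic cells. The endothelial-type receptor gene Acvrl1 was at 37.4 CPM in diabetic and 53.9 CPM in non-diabetic cells, a log2 ratio of -0.53, and Bmpr2 at 41.3 CPM in diabetic and 40.9 CPM in non-diabetic cells.

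Of 11 measured genes that open the latent complex, 3 were higher (27.3%, against 18.7% of all genes) and 4 lower (36.4%, against 12.9%) in the diabetic library. The gelatinase gene Mmp9 had 3970 diabetic and 28 non-diabetic UMIs, 130 CPM against 1.81 CPM (log2 ratio 6.14), and was highest in the diabetic Ctsk-led cells, at 800 CPM. The membrane protease gene Mmp14 was at 347 CPM in diabetic and 163 CPM in non-diabetic cells. Itgb8, the beta subunit of an integrin that activates TGF-beta, named after its values were seen, was at 14.9 CPM in diabetic and 1.88 CPM in non-diabetic cells, and at 57.5 CPM in the diabetic Stfa3-led cells. Lower in the diabetic library were Plau, at 10.7 CPM in diabetic and 22.2 CPM in non-diabetic cells, its receptor gene Plaur, at 221 CPM in diabetic and 443 CPM in non-diabetic cells, and Thbs1, at 2578 CPM in diabetic and 4408 CPM in non-diabetic cells. Thbs1, the gene of thrombospondin 1, stood at 12237 CPM in the non-diabetic Sema3c-led cells, and its log2 ratio of -0.77 was 0.27 without them, while that of Plaur was -0.34, within 1.5 times.

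Of 16 measured SMAD genes and regulators 2 were higher (12.5%, against 18.7% of all genes) and 5 lower (31.2%, against 12.9%) in the diabetic library. Smad1, whose protein carries BMP signals, was just past 1.5 times at 21.6 CPM in diabetic and 14.3 CPM in non-diabetic cells. The 5 lower genes included Pmepa1, a TGF-beta inhibitor of the membrane, at 16.03 CPM in diabetic and 50.5 CPM in non-diabetic cells (log2 ratio -1.65), the SMAD repressor genes Skil at 170 CPM in diabetic and 350.5 CPM in non-diabetic cells (-1.04) and Tgif1 at 164 CPM in diabetic and 290.4 CPM in non-diabetic cells (-0.83), and the inhibitory Smad7 at 34.8 CPM in diabetic and 53.5 CPM in non-diabetic cells (-0.62). Smad6, Smurf1, Smurf2 and Ski, which also restrain the pathway, were within 1.5 times, with log2 ratios of 0.07, 0.35, 0.32 and -0.25. Pmepa1 was at 131 CPM in the non-diabetic Sema3c-led cells, and its log2 ratio without them was -0.77, while that of Smad7 was -0.43, within 1.5 times. Pmepa1, Skil, Tgif1 and Smad7 also count among the TGF-beta targets, of which 17 were measured, at a median log2 ratio of -0.48. Of these 17 targets, 3 were higher (17.6%, against 18.7% of all genes) and 7 lower (41.2%, against 12.9%). The targets did not move as one: Id2, an inhibitor of differentiation factors, was at 551 CPM in diabetic and 313 CPM in non-diabetic cells (log2 ratio 0.82), whereas Bhlhe40 was at 127 CPM in diabetic and 332 CPM in non-diabetic cells (-1.39).

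None of the 8 measured genes of the integrated stress response was 1.5 times higher in diabetic cells, against 18.7% of all genes. At least 1.5 times lower were 6 of the 8 (75%, against 12.9% of all genes), at a median log2 ratio of -0.85. The pathway is known to induce Gdf15, but its part in the Gdf15 difference was not tested. The list was chosen with earlier results known. The phosphatase subunit gene Ppp1r15a was at 213 CPM in diabetic and 425 CPM in non-diabetic cells (log2 ratio -0.998). The stress factor genes Atf3, at 446 CPM in diabetic and 843 CPM in non-diabetic cells (-0.92), and Ddit3, at 21.2 CPM in diabetic and 38.3 CPM in non-diabetic cells (-0.85), were lower too. Atf4 was just past the 1.5-fold line at 218 CPM in diabetic and 328 CPM in non-diabetic cells (-0.59, or -0.33 without the Sema3c-led cells), and Nupr1 within it at 104 CPM in diabetic and 143 CPM in non-diabetic cells (-0.47).

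**Figure D5:**
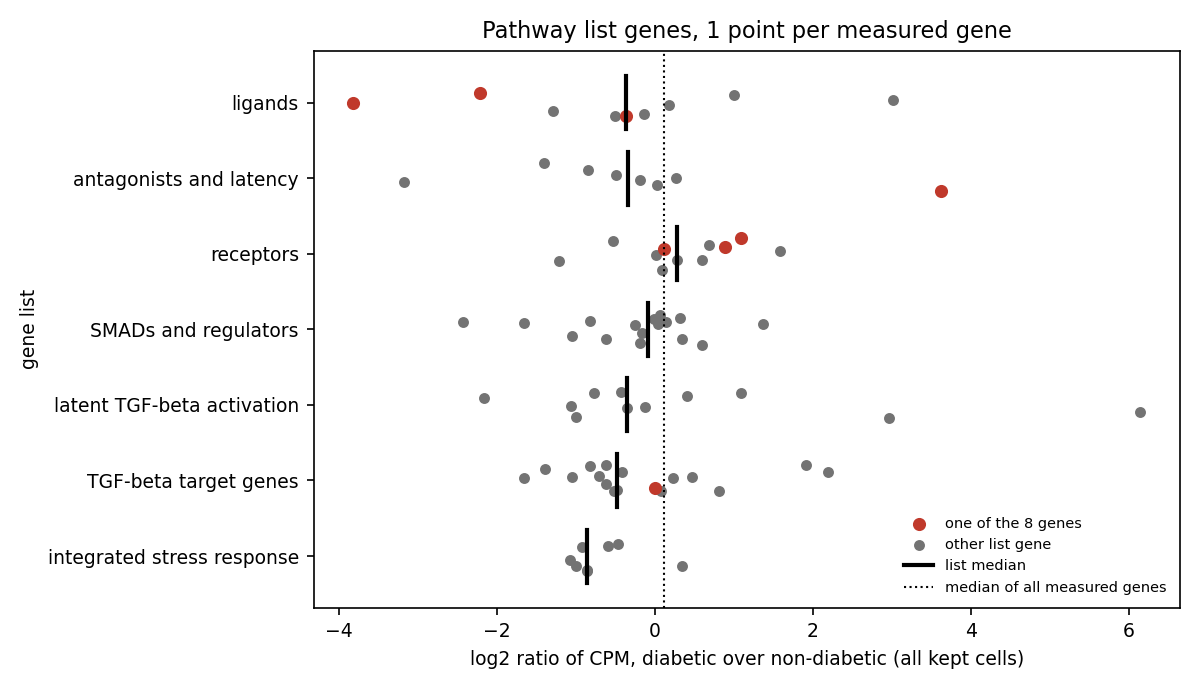
Log2 ratio of CPM, diabetic over non-diabetic, in all kept cells for every measured gene of the 7 lists (1 point each; red points are among the 8 genes, black bars are list medians, the dotted line is the median of all genes at 0.12). The stress response points lie left of the dotted line but for 1 gene, and the receptors have the highest list median, 0.28.

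Over the 19 sums of a state in a library, the genes whose log2(CPM + 1) ran most like each of the 8 were named by Pearson's r among 7619 genes. For Inhba these were Errfi1, Flrt3 and Tes (each 0.86), Fosl1 (0.84) and Slc7a11 (0.83). For Fst they were Arfgef1 (0.90), Slc7a2 (0.87), Ptges (0.87), Dach1 (0.86) and Has1 (0.85). Gdf15 had lower values, led by Arhgap6 (0.80) and Pwwp2a (0.79). Plod3 (0.85) was among the 5 for Tgfb1. Tgfbi ran most like Lgals8 (0.82), Tgfbr1 like Cdt1 (0.91), Tgfbr2 like Arhgap19 (0.92) and Acvr1b like Hcst (0.91). Between the 8 genes themselves the extremes were 0.59 for Inhba with Fst and -0.73 for Inhba with Tgfbr2. The sums share 2 libraries and a few states of high level, so these values describe the sums and carry no test.

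In genome build mm10 the 8 genes lie apart, except that Inhba (chr13:16011851-16031621), Tgfbi (chr13:56609523-56639562) and Fst (chr13:114452290-114458951, minus strand) share chromosome 13. Gdf15 is at chr8:70629393-70632456, Tgfb1 at chr7:25687002-25705077, Tgfbr1 at chr4:47353222-47414931, Tgfbr2 at chr9:116084293-116175360 and Acvr1b at chr15:101174067-101213684. Of overlapping antisense genes in the files, the one at Inhba, Gm48444, had 0 UMIs, and no other gene's transcript matched 1 of the 8 at 95% identity over 200 bases.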

How the data were processed

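Droplet 3' libraries of wound monocytes and macrophages, 1 diabetic and 1 non-diabetic, were read as the deposited matrices of raw UMI counts per gene and barcode, made with Cell Ranger 3.0.2 per the file headers, with mm10 as the build, per the submitters' processing notes. Which annotation release was used is not given in the sources used here. Gene positions were read from GENCODE M21, whose build is the same, and promoters from RefSeq (7 of the 8 genes matched). The 8 genes and all gene lists were chosen with earlier results of these data known.

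A cell was kept if it had 500 or more genes and less than 10% of mitochondrial UMIs. Doublets were kept, since Scrublet marked only 4 diabetic and 2 non-diabetic cells. Cells of both libraries were clustered with scanpy 1.11.5 and leidenalg 0.10.2 (2000 variable genes, 30 components, 15 neighbours, resolution 1), leaving out the 8 genes and list genes, 110 in all. No step aligned the libraries. UMIs were summed per library and state, given as CPM of all UMIs of those cells, and compared as log2 ratios after adding 0.5 UMI. A gene needed 20 UMIs over both libraries to be measured and a 1.5-fold difference to be counted as higher or lower. Intervals were exact Poisson, Clopper-Pearson or conditional binomial at 95% and cover counting error only. In a simulation of diabetic over non-diabetic ratios, the interval held the true value for 95.7% of 12009 genes given no difference. At 1.5 times, the cut-off for counting a gene, this was so for 89.4% of 66 genes. It was so for 95.3% of 64 genes at 2 times and for 93.9% of 66 genes at 4 times. These shares speak of counting error only, not of spread between cells or mice. Named list genes were up to 5 per list with the largest ratios at 20 CPM or more in a library, beside genes at 0, unless said otherwise. Some genes are not reported here. Alternatives covered scaling (edgeR 4.0.16 TMM, DESeq2 1.42.0 size factors), thresholds, cell sets, clustering and thinning depth.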

Additional observations from a re-analysis of the deposited data

Results flagged for a closer look

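Tgfbr2 was flagged because its log2 ratio of diabetic over non-diabetic CPM had opposite signs in different states, 1.06 within Ifit2-led cells and -0.69 within Syngr1-led macrophage-like cells. The difference between the states was not tested. Of all genes measured, 18.4% were at least 1.5 times higher in diabetic Ifit2-led cells and 20.7% that much lower in diabetic Syngr1-led cells. Of the 68 non-diabetic UMIs in the Syngr1-led cells 24 lay in 1 cell, and without cells with 5 or more fibroblast-marker UMIs the ratio there was -0.37.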

How the results depend on the processing

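The 16 alternative settings left the call of Gdf15, Tgfb1, Tgfbi, Tgfbr1, Tgfbr2 and Acvr1b in all kept cells as it was under each setting. Inhba kept its call in 14 and Fst in 15. Inhba turned round to a log2 ratio of 1.12 without the Sema3c-led cells and 0.48 without both the Sema3c-led and Stfa3-led cells (chosen after seeing the data), and Fst to -1.65 without the Stfa3-led cells; the cells left out hold most of the non-diabetic Inhba and diabetic Fst UMIs. The count of genes lower in the diabetic library was then 1 in place of 2 in both sets without the Sema3c-led cells. TMM scaling moved all log2 ratios by -0.11 and size factors by -0.07. The Sema3c-led share of non-diabetic Inhba UMIs, 92.4%, was 90.1% when clustered with the 8 genes and list genes, 95.3% at resolution 0.5 and 83.3% at resolution 2. With 10 cells of each library as the minimum, 45 gene and state pairs were measured in place of 33. Of these, 14 were higher and 9 lower, in place of 9 and 5. The share of all genes was not taken at that minimum. At 2 times in place of 1.5, 10 of the 76 list genes were higher and 14 lower, in place of 16 and 25. Of all genes 8.56% were then higher and 6.54% lower, in place of 18.7% and 12.9%. Cells with both Inhba and Fst made up 1.75% of diabetic cells when thinned to 5000 UMIs, against 0.983% at 2000. No paired analysis was possible because each group has 1 library. Depth limits Acvr1b, Fst and Gdf15 within states. Of the 5 shared states, Fst reached 20 UMIs over both libraries in 0, Gdf15 in 4 and Acvr1b in 5. Acvr1b had only 13 diabetic and 10 non-diabetic UMIs in the Lpl-led cells.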

Other observations

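The barcodes removed by the cell filter numbered 459 diabetic and 903 non-diabetic. They held 4 Fst UMIs in the diabetic and 0 in the non-diabetic library, and 0 Gdf15 UMIs in the diabetic and 67 in the non-diabetic library. Among them Inhba stood at 34.0 CPM (24.7 to 45.6) in diabetic and 97.2 CPM (84.4 to 111) in non-diabetic barcodes, and Tgfb1 at 157 CPM in diabetic and 415 CPM in non-diabetic barcodes.

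Fstl1, a follistatin-like gene chosen after its values were seen, had 48 diabetic and 221 non-diabetic UMIs, and Dcn, the gene of the TGF-beta binding protein decorin, 326 diabetic and 188 non-diabetic UMIs. The log2 ratio of Dcn was -0.19 in all kept cells and -3.15 without the Stfa3-led cells. Of the 326 diabetic Dcn UMIs 293 lay in the Stfa3-led cells, where Dcn was found in 12 of 320 diabetic cells. Of the 188 non-diabetic Dcn UMIs 181 lay in the Syngr1-led cells, the state with 3615 non-diabetic fibroblast-marker UMIs. Dcn was found in 6.67% of those 30 cells, and 1 of the 30 had 5 or more fibroblast-marker UMIs. Both Dcn log2 ratios thus rested on very few non-diabetic cells, and that in all kept cells also on few diabetic cells.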
